A study of Arabidopsis thaliana with 12 samples.

Results

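GID1B (AT3G63010) is 1 of the 3 gibberellin receptors of Arabidopsis thaliana, and SLY1 (AT4G24210, SLEEPY1) is the F-box protein that acts after the receptor. Both were chosen by name, with earlier results of these data known. The probe sets were taken by their annotation: 1 probe set named GID1B alone and 1 named SLY1 alone, 2 genes of the 13286 that had a probe set annotated to a single gene. The gene ATSLY1 carries a similar name but is a different locus and was not included. Both probe sets passed the filter on low signal and were among the 15922 tested.

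Gibberellins are growth hormones that promote germination and the elongation of seedlings. A GID1 receptor that has bound gibberellin takes hold of a DELLA protein, a repressor of growth. SLY1 is the substrate-binding subunit of an SCF ubiquitin ligase, which then marks the DELLA protein for destruction. In seedlings, DELLA proteins also restrain the PIF transcription factors, which drive hypocotyl growth in the dark, so the pathway meets light signalling there. Only transcripts were measured here, not hormone, receptor or DELLA protein.

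RNA labelled as total RNA came from the aerial parts of seedlings grown on plates for 4 days and was hybridised to oligonucleotide arrays. The extraction text of the same samples also describes the isolation of polysome RNA, the RNA loaded with ribosomes. The label was followed, and whether any value is of polysome rather than total RNA is not settled by the sources used here. All seedlings were in the Landsberg erecta (Ler) background, as wild type or as atbzip16, a mutant named after the G-group transcription factor bZIP16. Each genotype was kept in darkness (etiolated seedlings) or given red light of 0.5 µmol m-2 s-1 in long days. The 4 groups, dark Ler, dark atbzip16, red-light Ler and red-light atbzip16, held 3 biological replicates each, 12 arrays in all. The labels give neither the kind of allele nor whether more than a single mutant line was used, and do not say how the biological replicates were separated, so p-values measure the spread between these arrays.

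Several facts bear on every value. BZIP16 itself had no named probe set, and its transcript, which would check the mutant, is not analysed here. The free-text descriptions of 6 samples (3 dark atbzip16 and 3 red-light Ler) name the other light condition than their titles, and the titles were followed. The summed signal of 5 photosystem and antenna genes with a probe set, of 15 listed, went with the titles: it was between 18056.5 and 23905.2 on the 6 dark arrays and between 51122.8 and 87782.0 on the 6 red-light arrays. The abundant genes carry this sum, and 4 of the 5 rose in both genotypes, beside 5.65% of all tested probe sets called higher in Ler and 7.09% in atbzip16. The antenna gene LHCB4.3 went the other way, from a geometric mean of 420.3 to 210.0 in Ler (called lower, limma adjusted p = 0.00879) and from 399.7 to 275.1 in atbzip16 (adjusted p = 0.12). Of 10 listed root genes, 2 had a probe set: EXPA7, a root-hair expansin, was at a signal of 96.5 or less on every array, and PYK10, a beta-glucosidase abundant in roots and hypocotyls, was between 14456.5 and 22024.3. Arrays of the same replicate number deviated together, most of all in replicate 1, and the tests below were therefore also made with replicate as a block or, for the permutation tests, within pairs of arrays of the same number.

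The signal of GID1B, on the linear scale of the arrays, was 161.5, 215.1 and 212.4 in replicates 1, 2 and 3 of dark Ler. In dark atbzip16 it was 287.5, 257.8 and 200.9. In red-light Ler it was 162.9, 152.5 and 185.2, and in red-light atbzip16 133.0, 93.2 and 120.4. The 3 lowest arrays of the 12 were thus those of red-light atbzip16, which overlapped with no other group, while the other groups overlapped with at least 1 neighbour each. Of all tested probe sets, 33.1% separated red-light from dark atbzip16 and 9.96% separated the genotypes in red light. The share for which a group lay beyond all other arrays was not computed. On the log2 scale the group means were 7.94 ± 0.27 in dark atbzip16, 7.61 ± 0.23 in dark Ler, 7.38 ± 0.14 in red-light Ler and 6.84 ± 0.27 in red-light atbzip16 (SD, n = 3). Every array lay above the low-signal limit of 41.6.

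SLY1 had the opposite order. Its signal was 536.3, 554.8 and 606.2 in replicates 1, 2 and 3 of dark Ler, and 613.8, 516.8 and 468.5 in dark atbzip16. It was 883.3, 612.1 and 713.8 in red-light Ler and 727.4, 857.1 and 932.9 in red-light atbzip16. Red-light arrays were higher than dark arrays of the same genotype without overlap, although the lowest red-light Ler array (612.1) and the highest dark atbzip16 array (613.8) were nearly equal. Separation by light, in either direction, was found for 28.2% of all tested probe sets in Ler and 33.1% in atbzip16. The log2 group means were 9.71 ± 0.18 in red-light atbzip16, 9.51 ± 0.27 in red-light Ler, 9.14 ± 0.09 in dark Ler and 9.05 ± 0.20 in dark atbzip16 (SD, n = 3). The signal scale is particular to each probe set, so the levels of GID1B and SLY1 are not set against each other.

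**Figure D1:**
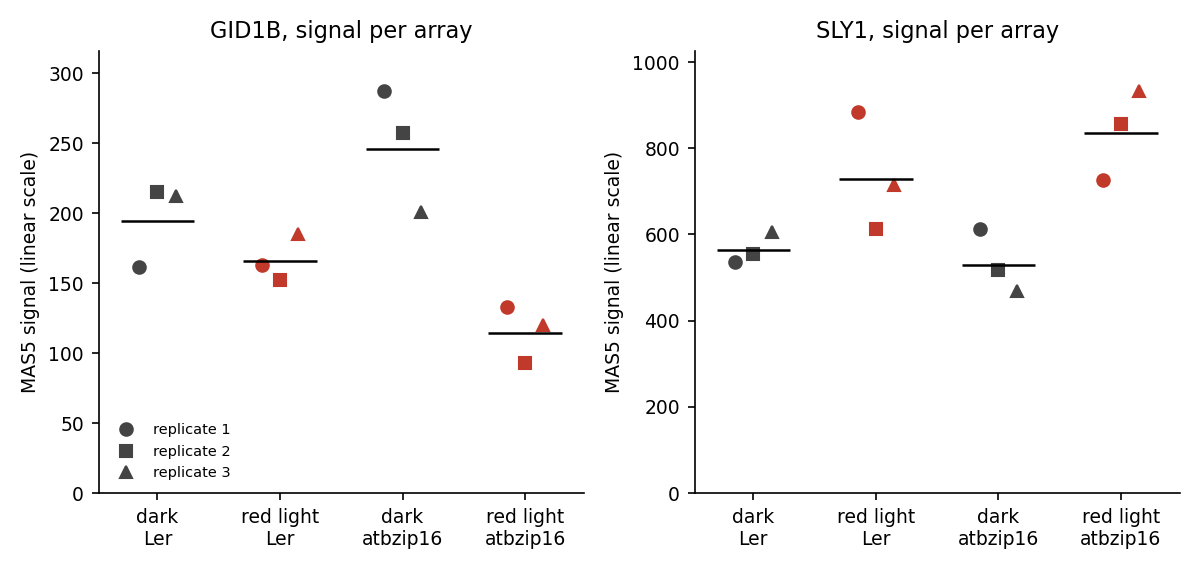
Linear array signal (y axis) of GID1B (left) and SLY1 (right) in the 4 groups (x axis), 1 point per array, with the marker shape giving the replicate number, grey for dark, red for red light and a black line for the geometric mean. The 3 red-light atbzip16 arrays of GID1B, 93.2 to 133.0, lie below all others, and the red-light arrays of SLY1 lie above the dark arrays of the same genotype.

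The first comparison asks how red light changed these transcripts relative to darkness. In atbzip16, GID1B fell and SLY1 rose. The geometric mean of GID1B went from 246.0 in the dark to 114.3 in red light, 0.465 of the dark level (95% interval 0.336 to 0.643), or -1.11 ± 0.22 as a log2 fold change (SE, n = 3 arrays in each group, adjusted p = 0.00452 by limma). Its difference between arrays of the same replicate number was -1.11, -1.47 and -0.74 on the log2 scale, lower in 3 of 3 pairs. SLY1 went from a geometric mean of 529.7 to 834.7, 1.58-fold higher (95% interval 1.23 to 2.02), or 0.66 ± 0.17 as a log2 fold change (adjusted p = 0.0194 by limma). It was higher in 3 of 3 pairs, by 0.24, 0.73 and 0.99.

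In this comparison limma called 14.0% of all tested probe sets, 7.09% higher and 6.88% lower, and with replicate as a block it called 26.5%. Of all tested probe sets, 4.67% fell at least as far as GID1B and 9.67% rose at least as far as SLY1. Groups without overlap were found for 33.1% of all tested probe sets. The 2 responses are thus of a size that many transcripts had in these seedlings.

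The GID1B call was kept when any 1 array of the compared groups was left out (log2 fold changes between -1.25 and -0.96, adjusted p between 0.00547 and 0.0236). The SLY1 call was not: it ended without dark atbzip16 replicate 2 (0.64, adjusted p = 0.0639) or replicate 3 (0.57, adjusted p = 0.0844), and without red-light atbzip16 replicate 2 (0.64, adjusted p = 0.0674) or replicate 3 (0.58, adjusted p = 0.0857). Its direction was the same in all 6 of these fits. Both calls ended without replicate 2 (adjusted p = 0.169 for GID1B and 0.252 for SLY1) and without replicate 3 (0.0637 and 0.379, limma). Without replicate 1 both were kept (limma adjusted p = 0.00329 and 0.00019). Each of these fits leaves 2 arrays per group.

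In the wild type, neither gene passed. GID1B had geometric means of 194.7 (dark) and 166.3 (red light), or -0.23 ± 0.22 as a log2 fold change (95% interval -0.70 to 0.24, limma adjusted p = 0.57). Its pairs gave 0.01, -0.50 and -0.20, and the groups overlapped. SLY1 had geometric means of 565.0 and 728.1, or 0.37 ± 0.17 as a log2 fold change (95% interval 0.01 to 0.73, limma adjusted p = 0.195). The 3 pairs of SLY1 were all higher in red light, by 0.72, 0.14 and 0.24, and the groups did not overlap, as was the case for 28.2% of all tested probe sets. In Ler, limma called 11.4% of them, and 23.6% with replicate as a block.

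Averaged over both genotypes, which uses 6 dark and 6 red-light arrays, both genes were called. GID1B fell, its log2 fold change being -0.67 ± 0.15 (adjusted p = 0.00659 by limma), to 0.63 of the dark level (95% interval 0.501 to 0.793). SLY1 rose by 0.51 ± 0.12 on that scale (limma adjusted p = 0.00669), 1.43-fold (95% interval 1.19 to 1.70). These 2 calls were kept without any 1 of the 12 arrays, with adjusted p between 0.00455 and 0.0202 for GID1B and between 0.00491 and 0.021 for SLY1. Both ended without the 4 arrays of replicate 2 (limma adjusted p = 0.184 for GID1B and 0.088 for SLY1) and without those of replicate 3 (0.0611 and 0.143). Without those of replicate 1 both were kept (limma adjusted p = 0.0037 and 0.000412). For this average, limma called 24.7% of all tested probe sets, and 38.5% with replicate as a block. An exact permutation test that exchanged the light labels within each genotype (two-sided, 400 arrangements, smallest possible p = 0.005) gave p = 0.015 for GID1B and p = 0.005 for SLY1, or 0.0188 and 0.0125 after Benjamini-Hochberg adjustment over the 5 such tests made here. With the arrays taken as 6 pairs of the same genotype and replicate number, GID1B was lower in red light in 5 of 6 pairs and SLY1 higher in 6 of 6. Exact sign flips within these pairs (two-sided, 64 arrangements, smallest possible p = 0.0312) gave p = 0.0625 for GID1B and p = 0.0312 for SLY1. After adjustment over the 5 tests these were 0.0625 and 0.0521, so neither passed in this paired form. The SLY1 p was already the smallest possible, so whether it passed after adjustment depended on the other tests alone. Limma with replicate as a block called both averaged responses (adjusted p = 0.00392 for GID1B and 0.00187 for SLY1).

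**Figure D2:**
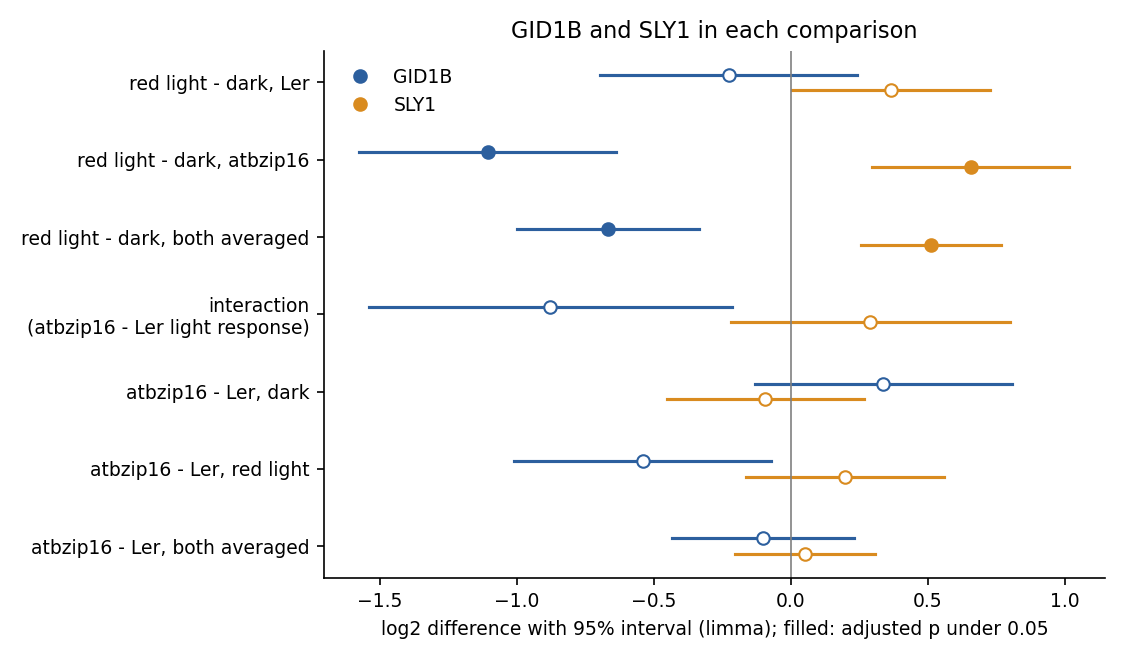
Log2 differences (x axis) of GID1B (blue) and SLY1 (orange) in the 7 comparisons (y axis), with 95% intervals from limma over 12 arrays and filled points for an adjusted p under 0.05. The filled points are the light responses in atbzip16 and averaged over genotypes, where GID1B lies at -1.11 and -0.67 and SLY1 at 0.66 and 0.51.

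The opposite movement of the 2 genes can be followed within each array as the log2 signal of SLY1 less that of GID1B. This difference was 1.73, 1.37 and 1.51 in dark Ler and 1.09, 1.00 and 1.22 in dark atbzip16. It was 2.44, 2.00 and 1.95 in red-light Ler and 2.45, 3.20 and 2.95 in red-light atbzip16. All 6 red-light arrays lay above all 6 dark arrays. Single signals separated by light within a genotype for 28.2% of all tested probe sets in Ler and 33.1% in atbzip16. How often differences of other gene pairs separate was not computed. The mean shift was 1.18 (exact permutation within genotype, two-sided p = 0.005, the smallest that this test can give, and 0.0125 adjusted over the 5 tests). It was positive in 6 of 6 pairs, with an exact sign-flip p of 0.0312, again the smallest possible, and 0.0521 after adjustment. The difference within an array does not depend on how the array was scaled by a constant, and it shows unequal change of the 2 transcripts only. The shift combines the 2 averaged responses given above, and the genes were chosen with earlier results known, so its p-values are no independent evidence.

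**Figure D3:**
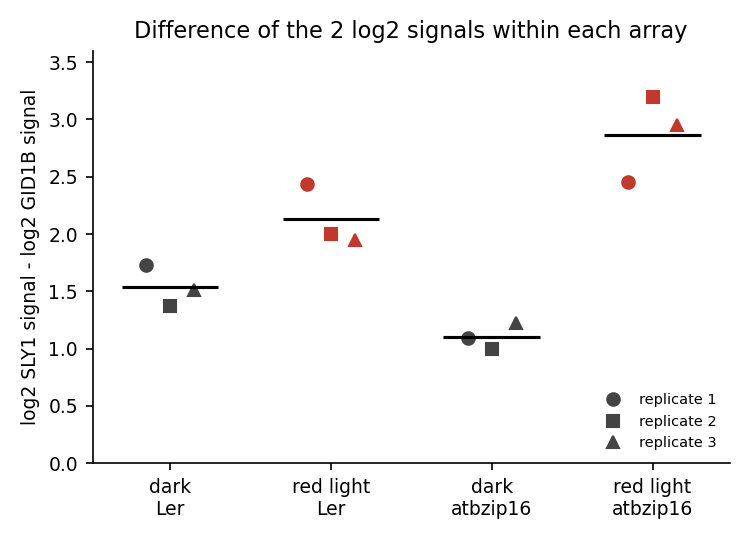
Log2 SLY1 signal less log2 GID1B signal (y axis) on each of the 12 arrays by group (x axis), with marker shapes for replicates, grey for dark, red for red light and a black line for the group mean. The dark arrays lie between 1.00 and 1.73 and the red-light arrays between 1.95 and 3.20.

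A further question is how the mutant compared with the wild type under the same light condition. In darkness, GID1B had a log2 difference of 0.34 ± 0.22 (atbzip16 less Ler, limma adjusted p = 0.915), with pairs of 0.83, 0.26 and -0.08. In red light it had -0.54 ± 0.22 (95% interval -1.01 to -0.07, unadjusted p = 0.0269, limma adjusted p = 0.907), a geometric mean of 114.3 against 166.3. The red-light groups did not overlap, and GID1B was lower in 3 of 3 pairs, by -0.29, -0.71 and -0.62. Such separation was found for 9.96% of all tested probe sets in this comparison. Averaged over light, the GID1B difference was -0.10 ± 0.15 (limma adjusted p = 0.947).

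SLY1 gave -0.09 ± 0.17 in the dark (limma adjusted p = 0.994), 0.20 ± 0.17 in red light (adjusted p = 0.999) and 0.05 ± 0.12 averaged over light (adjusted p = 0.97). Its 95% intervals were -0.45 to 0.27, -0.16 to 0.56 and -0.20 to 0.31, the last of these from 6 arrays of each genotype. Limma called 0.0628% of all tested probe sets in the dark, 0.0377% in red light and 0.22% averaged over light. With replicate as a block these shares were 1.82%, 0.546% and 2.08%, and neither gene was called.

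The interaction asks whether the light response itself differed between genotypes. The response of GID1B was lower in atbzip16 than in Ler by a log2 difference of -0.88 ± 0.31 (95% interval -1.54 to -0.22), with an unadjusted p of 0.0134 and a limma adjusted p of 1.00. It ranked 166 of 15922 by p. Limma called 0 probe sets here (0.0%), with 567 at an unadjusted p under 0.05, which is 3.56% of all tested probe sets, and 54 (0.339%) were called with replicate as a block, GID1B not among them (adjusted p = 0.415). For SLY1 the interaction was 0.29 ± 0.23 (95% interval -0.22 to 0.80, limma adjusted p = 1.00). A call in atbzip16 and none in Ler is therefore not a shown difference between the genotypes, for either gene.

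The group means can be ordered, but these tests do not establish the order. For GID1B, dark atbzip16 was highest, followed by dark Ler, red-light Ler and red-light atbzip16, and no pair of neighbours in that order passed after adjustment. For SLY1, red-light atbzip16 was highest, followed by red-light Ler, dark Ler and dark atbzip16, and again no neighbours passed.

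Among 43 genes listed for gibberellin perception, DELLA repressors, DELLA modification, hormone synthesis, inactivation and response, 7 had a named probe set, and all 7 were tested. They were the 3 receptors, the F-box pair and 2 modifiers of DELLA proteins. No DELLA, synthesis, inactivation or GASA response gene had a named probe set, and neither had the 4 listed SCF core and 4 listed PIF genes, so these steps were not analysed here. In atbzip16, where 7.09% of all tested probe sets were called higher and 6.88% lower, 2 of the 7 rose and 1 fell in red light and 4 did not pass. The median log2 fold change of the 7 was -0.13 beside -0.02 over all tested probe sets. The called genes include GID1B and SLY1 themselves, which were chosen with earlier results known. Of the 5 other genes, 1 (SNE) was called higher and 0 lower. In Ler, limma called 0 of the 7 beside 11.4% of all tested probe sets, with 2 at an unadjusted p under 0.05 beside 24.7% of all, and the median was 0.13 beside -0.06. For both genotype differences, their average and the interaction, 0 of the 7 were called by limma. At an unadjusted p under 0.05 there was 1 gene in red light and 1 in the interaction, GID1B both times, and there were 0 in the dark and 0 averaged over light. The shares of all tested probe sets at that unadjusted threshold were 5.13% in red light, 3.56% for the interaction, 6.3% in the dark and 7.37% averaged over light.

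The other receptors, GID1A and GID1C, are paralogs of GID1B that also bind gibberellin and DELLA proteins. GID1A, in replicates 1, 2 and 3, had signals of 1949.0, 1418.3 and 1253.6 in dark Ler and 1726.3, 1728.2 and 1562.8 in red-light Ler. In atbzip16 the GID1A signals were 2654.5, 1690.7 and 1655.8 in the dark and 1764.7, 1683.6 and 1730.3 in red light. Dark and red-light arrays overlapped in both genotypes, and the log2 fold changes were 0.14 ± 0.19 in Ler and -0.18 ± 0.19 in atbzip16 (limma adjusted p = 0.705 and 0.61). Without replicate 1, GID1A was called higher in Ler, at 0.30 (limma adjusted p = 0.0428).

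GID1C had signals of 473.1, 449.8 and 403.7 in dark Ler and 609.4, 452.4 and 407.1 in red-light Ler. In atbzip16 the GID1C signals were 403.9, 363.0 and 358.2 in the dark and 422.2, 377.7 and 466.4 in red light. The groups overlapped here too, and the log2 fold changes were 0.13 ± 0.17 and 0.17 ± 0.17 (limma adjusted p = 0.69 and 0.573). Averaged over genotypes, the light response was -0.02 ± 0.14 for GID1A and 0.15 ± 0.12 for GID1C, beside -0.67 ± 0.15 for GID1B.

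The response of GID1B was also set against those of the other receptors, on its log2 signal less that of each paralog in the same array, a comparison added after the values above were seen, so that its p-values are no independent evidence. Relative to GID1A it shifted by -0.65 in red light (exact permutation within genotype, two-sided p = 0.02, adjusted over the 5 tests 0.02). Relative to GID1C it shifted by -0.81 (exact permutation p = 0.01, adjusted 0.0167). The pairs of the same replicate number gave 0.19, -0.78 and -0.52 in Ler and -0.52, -1.46 and -0.80 in atbzip16 relative to GID1A, lower in 5 of 6. Relative to GID1C all 6 were lower, between -1.53 and -0.21. Exact sign flips within pairs gave p = 0.0625 for GID1A and p = 0.0312, the smallest possible, for GID1C. Adjusted over the 5 tests these were 0.0625 and 0.0521, so a difference from either receptor was not shown in this paired form.

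SNE (AT5G48170, named SLY2 in RefSeq) is the F-box paralog of SLY1 and can also bind DELLA proteins. Its signals, in replicates 1, 2 and 3, were 51.8, 45.3 and 44.8 in dark Ler and 91.6, 57.3 and 133.0 in red-light Ler. In atbzip16 they were 49.2, 68.8 and 49.3 in the dark and 110.4, 123.1 and 142.4 in red light. Red-light arrays were higher than dark arrays of the same genotype without overlap, as for SLY1. Groups without overlap, in either direction, were found for 28.2% of all tested probe sets in Ler and 33.1% in atbzip16. The dark signals of SNE were near the low-signal limit of 41.6. SNE rose in atbzip16 by 1.18 ± 0.35 (limma adjusted p = 0.0407) and averaged over genotypes by 1.04 ± 0.25 (adjusted p = 0.00777). In Ler it had 0.91 ± 0.35 (adjusted p = 0.121). The call in atbzip16 ended without any 1 of its 6 arrays (1.08 to 1.34, adjusted p between 0.055 and 0.135) and without the low-signal filter (adjusted p = 0.0778). The call averaged over genotypes was kept without any 1 of the 12 arrays but ended without the 4 arrays of replicate 3 (0.79, adjusted p = 0.193). Without red-light Ler replicate 2, SNE in Ler reached 1.23 (limma adjusted p = 0.05).

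SPY and SEC encode related O-glycosyltransferases that modify DELLA proteins. SPY had log2 fold changes in red light of 0.03 ± 0.24 in Ler and -0.13 ± 0.24 in atbzip16 (limma adjusted p = 0.949 and 0.782). SEC had -0.01 ± 0.18 and -0.17 ± 0.18 (adjusted p = 0.987 and 0.579). Their signals ran from 633.6 to 1210.5 and from 967.3 to 1490.9, and dark and red-light arrays overlapped in both genotypes.

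**Figure D4:**
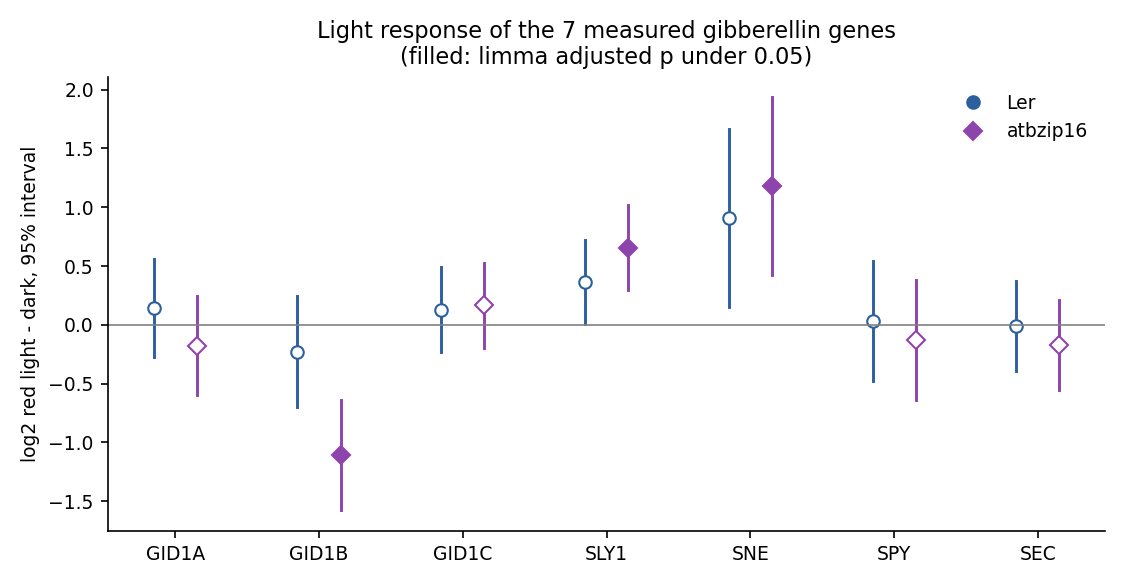
Log2 light response (y axis, red light less dark, 95% interval from limma) of the 7 measured gibberellin genes (x axis), circles for Ler and diamonds for atbzip16, filled where the adjusted p was under 0.05. The filled diamonds are GID1B at -1.11, SLY1 at 0.66 and SNE at 1.18, and no gene has a filled circle.

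Transcripts made late in seed development moved with light on the same arrays. The summed signal of 4 seed-maturation genes, of 12 listed, was between 20452.8 and 37295.8 in dark Ler and between 48890.5 and 65224.1 in dark atbzip16, against 455.4 to 604.7 on the 6 red-light arrays. The sums of the dark genotypes did not overlap, as was the case for the single signals of 12.3% of all tested probe sets. PAP85 and M17 carry these sums, and the oleosin gene OLEO3 had the opposite order, with geometric means of 2289.2 in dark Ler and 1779.6 in dark atbzip16 (log2 difference -0.36, limma adjusted p = 0.947). All 4 fell in red light in both genotypes, beside 5.78% of all tested probe sets called lower in Ler and 6.88% in atbzip16. The median log2 fold change was -5.46 in Ler and -7.18 in atbzip16. M10 (-4.87 in Ler, -8.46 in atbzip16) and PAP85 (-6.06, -6.87) fell further in atbzip16, but M17 (-8.65, -7.49) and OLEO3 (-3.71, -3.38) did not. The sizes for M10 and M17 are uncertain, because red-light signals reached below the limit of 41.6 (M10 7.8 in atbzip16, M17 3.0 in Ler). Limma called 0 of the 4 between genotypes in the dark and 0 in red light. At an unadjusted p under 0.05 there were 2 in the dark and 2 in red light, beside 6.3% and 5.13% of all tested probe sets. The 2 in red light went opposite ways, M10 at -1.95 and M17 at 2.39. The part of the 4 seed-maturation genes in the changes of GID1B and SLY1 was not tested. In these bulk samples, fewer cells of a type and less RNA per cell cannot be told apart.

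The genes whose log2 signal was most like that of GID1B over the 12 arrays were AT3G14240 (Pearson r = 0.93), AT4G32920 (r = 0.92) and AT2G04400 (r = 0.91), out of all tested probe sets with 1 named gene. The coefficient stayed between 0.89 and 0.94 for these 3 genes when any 1 array was left out. After quantile normalization that of AT3G14240 was 0.86. Most like SLY1 were AT2G42910 (r = 0.92), AT2G25200 (r = 0.92) and AT4G22160 (r = 0.91), between 0.89 and 0.95 without any 1 array. The 12 arrays fall into 4 groups and share their scaling, so the coefficients describe the order of groups as well as arrays. Within groups, after subtraction of the group means, they were 0.78, 0.68 and 0.72 for the GID1B set and 0.71, 0.81 and 0.67 for the SLY1 set. The geometric mean of AT4G32920, for example, was 309.4 in dark atbzip16, 239.1 in dark Ler, 182.3 in red-light Ler and 152.8 in red-light atbzip16, the order that GID1B had. That of AT4G22160 was 209.4 in red-light atbzip16, 168.1 in red-light Ler, 126.2 in dark Ler and 103.2 in dark atbzip16, the order that SLY1 had. AT2G25200 had the dark groups the other way round, with 166.6 in dark atbzip16 and 142.3 in dark Ler. The genes were taken for the highest coefficients among all those tested, so their likeness is a description.

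**Figure D5:**
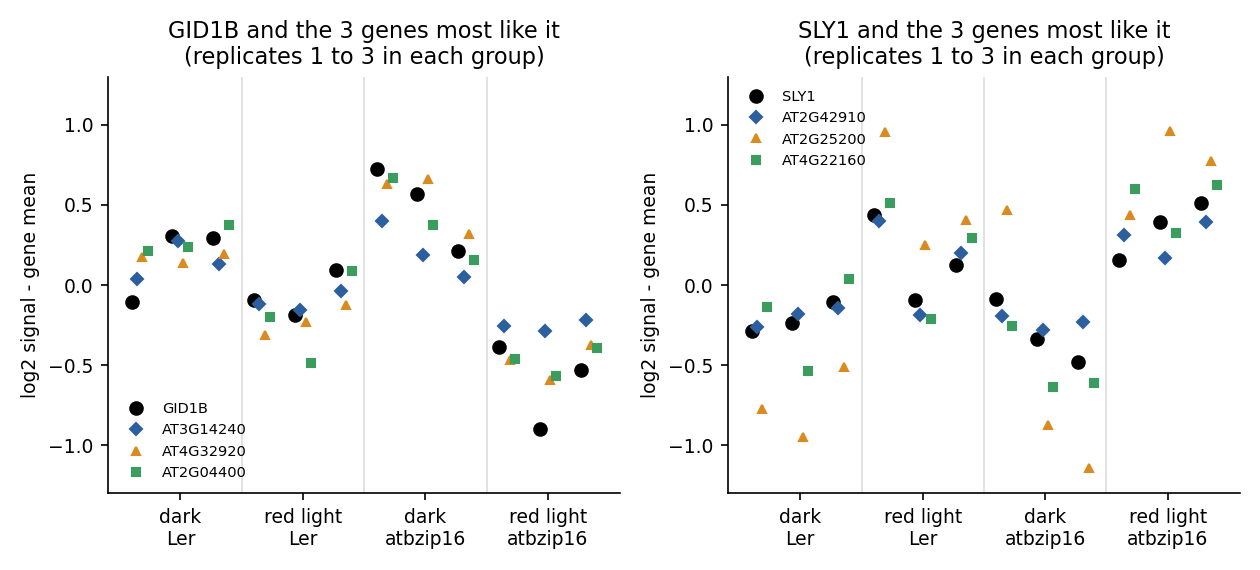
Log2 signal less the mean of the gene (y axis) on the 12 arrays by group (x axis, replicates 1 to 3 from left to right in each group), for GID1B (left, black circles) and SLY1 (right, black circles) and the 3 genes most like each. All 4 genes on the left are lowest on average in red-light atbzip16, and all 4 on the right are highest there.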

How the data were processed

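The authors deposited 1 intensity value per probe set and array on a linear scale. MAS5 made these values per the submitters' processing notes, and its version, settings and detection calls are not given in the sources used here. Every array had a mean without its lowest and highest 2% of 500.0 to 500.1 when this was computed, and signals ran from 0.1 to 51801.3. Arrays hold no molecule count, so their number limits the precision. The members, gene lists and tests were chosen with earlier results of these data known.

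Groups were taken from sample titles. Signals were taken to log2 with no pseudocount. The 64 control probe sets and the 30% of the other 22746 with the lowest geometric mean (under 41.6) were left out. Group means were fitted over 12 arrays by lmFit of limma 3.58.1 (R 4.3.3), followed by eBayes with a variance trend. This fit was tested on simulated data for the light response in Ler only. The simulated arrays were independent, so deviations shared by replicate number were not covered. P-values were adjusted by Benjamini-Hochberg over all 15922 tested probe sets and called under 0.05. Errors are standard errors unless named SD, and intervals are 95%. Names came from the platform annotation, updated by Entrez ID to the RefSeq table of TAIR10.1: 13513 probe sets had 1 gene, 503 several and 8730 none. Named genes were the members, all tested genes of the gibberellin lists, and the 3 tested genes with the highest correlation to each member.

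The labels do not say that a replicate number marks a shared day. Residuals of same-numbered arrays of different groups correlated positively in all 18 pairs (0.164 to 0.505), so the numbers were read as pairs. Most of this lay in replicate 1 (0.317 to 0.505), while same-numbered arrays of replicates 2 and 3 (0.164 to 0.292) were barely above pairs of 1 with the other (0.105 to 0.248). Alternatives were median centring, quantile normalization, a pseudocount of 16, no filter, no trend, the replicate block (for the permutation tests, sign flips within pairs), fits over the compared groups only, and fits without 1 array or 1 replicate number.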

Additional observations from a re-analysis of the deposited data

How the results depend on the processing

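Every light response of GID1B and SLY1 kept its direction in all alternatives, and in the limma fits other than those without arrays it kept its call or lack of one. In the limma fits, replicate as a block changed no call of the 7 gibberellin genes: the log2 fold change of GID1B in atbzip16 was -1.11 with the block (adjusted p = 0.00197) and that of SLY1 0.66 (adjusted p = 0.00562). In the exact tests, sign flips within pairs, added after the data were seen, left the averaged response of GID1B (-0.67) at p = 0.0625 and its shift relative to GID1A (-0.65) at p = 0.0625. Median centring raised the median light response of all probe sets by 0.129 averaged over genotypes and brought that of GID1B in atbzip16 to -0.99 and that of SLY1 to 0.77. It also moved the share of higher calls from 47.7% to 67.2% (49.4% to 67.4% in Ler, 50.8% to 65.9% in atbzip16), and quantile normalization that of genotype calls in the dark from 50.0% to 66.7% and in red light from 33.3% to 22.2%.

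Over fits without 1 array, or without the 4 arrays of 1 replicate number, the light response of GID1B in atbzip16 lay between -1.29 and -0.93 and averaged between -0.77 and -0.51, and that of SLY1 between 0.49 and 0.86 and between 0.44 and 0.57. All 4 of these calls ended without replicate 2 and without replicate 3 but were kept without replicate 1. Leaving out any 1 replicate number leaves 2 arrays per group. The genotype difference averaged over light changed sign for GID1B (-0.29 to 0.023) and SLY1 (-0.018 to 0.12), as did that of SLY1 in the dark (-0.24 to 0.046), none of them called. Small uncalled values of other genes changed sign too: the averaged light response of GID1A (-0.12 to 0.17), SEC (-0.17 to 0.029) and SPY (-0.15 to 0.049), with 0.11, 0.038 and 0.082 after median centring, and that of SEC (-0.11 to 0.18, 0.14 after centring), SPY (-0.18 to 0.23) and GID1C (-0.040 to 0.25) in Ler and of GID1A (-0.30 to 0.045) and SPY (-0.25 to 0.053) in atbzip16. So did the interaction of GID1C (-0.13 to 0.21), SPY (-0.36 to 0.048) and SNE (-0.047 to 0.56).

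Counts of called probe sets varied more. With the block they were 3761 in Ler (1820 without), 4221 in atbzip16 (2224), 6124 averaged (3940), 290 between genotypes in the dark (10), 87 in red light (6), 331 averaged (35) and 54 for the interaction (0, and 1 with the pseudocount). Over fits without arrays they ran from 307 to 4248, 399 to 4657, 1370 to 6393, 1 to 641, 1 to 461, 1 to 885 and 0 to 242. The highest of each came without replicate 1. Among single arrays, dark Ler replicate 2 or 3 brought the count in Ler to 1079 or 1056, red-light atbzip16 replicate 2 or 3 that in atbzip16 to 1372 or 1414, and red-light Ler replicate 1 the genotype count in red light to 25 and averaged to 87. Leaving out red-light atbzip16 replicate 2 or 3 brought the red-light genotype count to 1. The averaged one was 15 to 22 without any 1 of replicates 2 and 3 of dark Ler, dark atbzip16 or red-light atbzip16. For the interaction, 2 were called when red-light Ler lacked replicate 1, and 1 when it lacked replicate 3 or red-light atbzip16 lacked replicate 1. The dark genotype count was 39 without dark Ler replicate 1 and 1 or 2 without any other single dark array. Fits over the compared groups only gave 1096 in Ler, 16 in the dark and 1 in red light. Without a trend the genotype counts were 3 in the dark and 21 averaged, and in the dark they were 6 after centring, 18 without the filter and 26 with the pseudocount.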
